A study of Mus musculus with 31 samples.

Results

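The surfactant protein genes Sftpa1, Sftpb, Sftpc and Sftpd were examined as 3 fixed windows of mouse build mm9. Sftpa1 and Sftpd share the 140 kb window chr14:41900000-42040000. Sftpb has the 110 kb window chr6:72200000-72310000, and Sftpc the 100 kb window chr14:70870000-70970000. The windows were drawn around the named genes, which were picked with earlier results of these data known, and every peak or island that touched a window was a member. They held 84 of the 67347 deposited transcription factor peaks and 130 of the 459490 deposited histone mark islands. An annotation of mm9 was not used here, so the windows stand as given and no peak is placed in an exon, intron or promoter.

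The data are ChIP-seq (chromatin immunoprecipitation and sequencing) of lung adenocarcinomas from mice of mixed 129/B6 strain, aged 4 to 7 months. Tumors were either Nkx2-1-positive (called positive below) or Nkx2-1-deleted (called deleted). Per the labels' protocols, mice received adenovirus or lentivirus into the trachea, and tamoxifen was given at a low or a high dose; the labels do not say which mice received which. The labels also do not give the alleles or the cell type in which Nkx2-1 was deleted. Nkx2-1 was profiled in 2 positive male libraries, and Foxa1/2 in 2 positive male and 2 deleted female libraries with 1 antibody that recognises both Foxa1 and Foxa2. H3K27ac, H3K4me1, H3K4me3 and H3K27me3 were each profiled in 1 male and 1 female library per tumor type. Of 31 samples, 9 were inputs, not used here. The 2 files of each of the 11 groups were identical, so each group is 1 merged list, no value below has a replicate spread, and no test of a difference was possible. For Foxa1/2, tumor type and sex cannot be told apart. In whole tumors, a change in the share of cells that carry a mark and a change in the mark per cell cannot be told apart either.

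Pulmonary surfactant is the lipid and protein film that lowers surface tension in the alveoli, and alveolar type II cells make it. Sftpb and Sftpc encode the small hydrophobic proteins SP-B and SP-C, which help the lipid film spread. Sftpa1 and Sftpd encode SP-A and SP-D, collectins that bind sugars on microbes. Nkx2-1, a homeodomain factor of lung and thyroid, and the forkhead factors Foxa1 and Foxa2 are known regulators of surfactant protein promoters in lung epithelium. H3K27ac marks active promoters and enhancers, H3K4me1 mainly enhancers, H3K4me3 mainly promoters of active genes, and H3K27me3 chromatin silenced by Polycomb.

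Promoter sequence was at hand for 2 of the 4 genes, Sftpa1 and Sftpb, from RefSeq on build GRCm38.p6. They are shown because the short CAAG core bound by Nkx2-1 and the forkhead core bound by Foxa factors can be read in them directly. Each run is the 250 bases before the annotated start, 5′ to 3′ on the + strand of the gene. Capitals mark CTCAAG and the forkhead motif.
Sftpa1 (chr14:41131538-41131787, GRCm38.p6): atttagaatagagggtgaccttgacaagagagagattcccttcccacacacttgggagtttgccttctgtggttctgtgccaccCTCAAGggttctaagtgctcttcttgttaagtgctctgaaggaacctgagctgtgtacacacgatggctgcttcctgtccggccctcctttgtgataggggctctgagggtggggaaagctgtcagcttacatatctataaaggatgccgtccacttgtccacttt
Sftpb (chr6:72304360-72304609, GRCm38.p6): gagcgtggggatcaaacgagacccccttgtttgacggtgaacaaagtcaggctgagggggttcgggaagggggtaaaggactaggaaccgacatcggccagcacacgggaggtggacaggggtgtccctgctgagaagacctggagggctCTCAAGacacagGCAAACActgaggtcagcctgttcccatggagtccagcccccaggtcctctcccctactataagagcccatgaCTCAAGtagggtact

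Motifs were searched on both strands, and positions count back from the base before the start, which is -1. The Sftpb promoter held CTCAAG at -100 to -95 and again at -15 to -10. Between them, at -88 to -82, it held TGTTTGC on the minus strand, printed above as GCAAACA. The forkhead motifs searched were TGTTTAC and also TGTTTGC, with TATTTAC as well as TATTTGC as variants. In Sftpa1, CTCAAG stood at -166 to -161, and none of these 4 was found in this stretch. CAAG itself, which lies inside every CTCAAG, matched 6 times in Sftpa1 and 3 times in Sftpb. CACTCAAG and CACTTGAG matched neither. Of 32817 promoters of the same length, 86.6% held CAAG, 13.3% CTCAAG, 0.966% CACTCAAG, 0.814% CACTTGAG, 4.30% TGTTTGC and 11.9% any of the forkhead motifs. A match of letters is a description and not a bound site. The build of these sequences differs from that of the peaks, so no peak was laid over them. In the same annotation the order of genes was Mat1a, Sftpa1, Mbl1, Sftpd at the first locus, Atoh8, Sftpb, Usp39 at the second and Bmp1, Sftpc, Lgi3 at the third.

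The Nkx2-1 list held 29782 peaks, and the Foxa1/2 lists 23039 (positive) and 14526 (deleted). Reads inside islands, the only depth in the lists, ranged from 18.5 to 45.7 M in the positive and from 19.6 to 31.2 M in the deleted lists. For H3K27ac they were 45.7 M in positive and 31.2 M in deleted tumors. Island reads are therefore given below as counted and as RPM, which is reads per 1000000 island reads of the same list. A peak's score is the authors' own value, at least 60, and is used only within its list. Scores reach a ceiling near 3100, with 66 Nkx2-1, 351 positive Foxa1/2 and 57 deleted Foxa1/2 peaks at 3100 or more.

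Nkx2-1 peaks were dense at all 3 loci. The Sftpb window held 14, the Sftpa1 and Sftpd window 11 and the Sftpc window 10. These counts correspond to 12.7, 7.86 and 10.0 peaks per 100 kb, where the genome had 1.13. When the genome was laid out in tiles of the same length, 0.158% of tiles held as many as Sftpb, 1.57% as many as Sftpa1 and Sftpd, and 0.891% as many as Sftpc. The 10 peaks of Sftpc lay within 33.1 kb, with a median of 3.16 kb between neighbouring summits. Those of Sftpb spanned 83.0 kb with a median gap of 4.09 kb, and those of Sftpa1 and Sftpd 93.3 kb with a median gap of 9.34 kb.

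At each locus peaks from the top of the Nkx2-1 list stood beside weak ones. In the Sftpb window, chr6:72253186-72256206 scored 3100, above 99.8% of the list. It was 3021 bp wide, and the next were chr6:72226089-72228314 with a score of 2750 and chr6:72221527-72223210 with 1658. Another, chr6:72242321-72244352, scored 1010, above 95.1% of the list. In the Sftpc window, 3 strong peaks stood side by side: chr14:70923309-70925092 scored 1799, chr14:70925933-70927539 scored 2466 and chr14:70929138-70931638 scored 2291. All 3 scored above at least 98.6% of the list. In the Sftpa1 and Sftpd window, chr14:41958911-41961447 scored 2409, chr14:41980074-41982816 scored 1718 and chr14:41944462-41945499 scored 786. Median scores were 278 (Sftpb), 226 (Sftpc) and 258 (Sftpa1 and Sftpd), against 161 for the list, and the weakest members scored 78, 62 and 65.

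**Figure D1:**
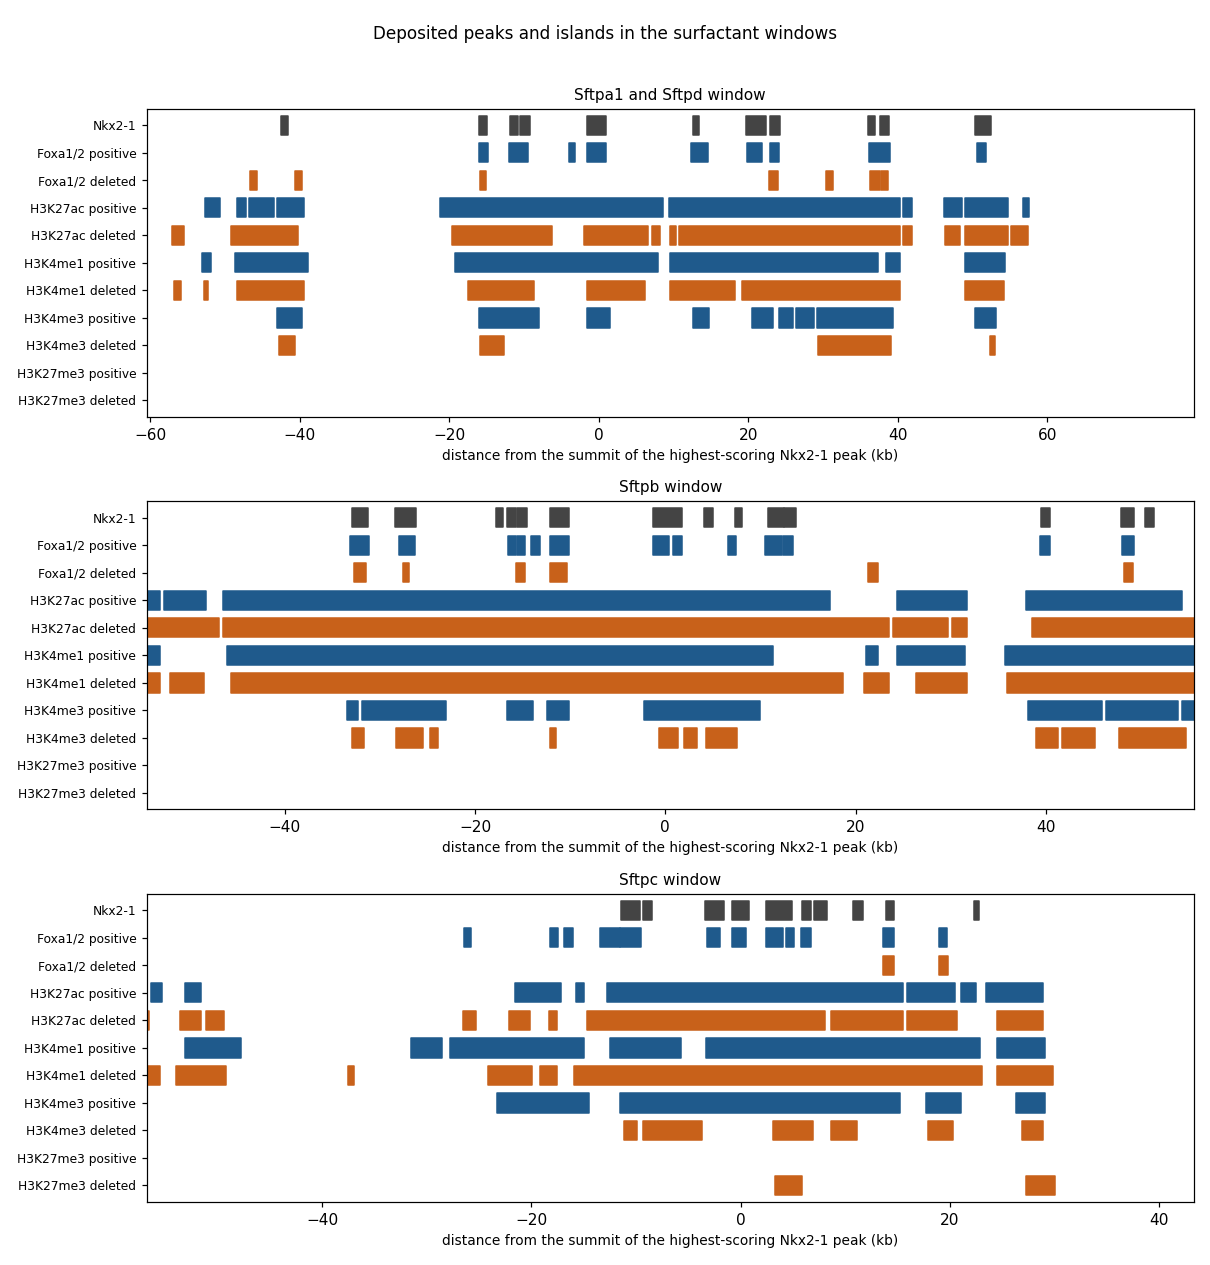
Position of every deposited peak and island in the 3 windows, cut at the window edges. The x axis is the distance in kb from the summit of the highest-scoring Nkx2-1 peak, rows are the lists, and blue marks positive and orange deleted tumors (Nkx2-1 in grey, positive tumors only). H3K4me3 covered 35.0% of the windows in positive and 16.6% in deleted tumors, while H3K27ac covered 63.4% and 64.0%.

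Most Nkx2-1 peaks lay on a Foxa1/2 peak of positive tumors. Sharing at least 1 bp, 27 of 35 did (77.1%), where 47.6% of the whole Nkx2-1 list did. By locus this was 10 of 11 for Sftpa1 and Sftpd, 11 of 14 for Sftpb and 6 of 10 for Sftpc. Under the narrower rule that the summits lie within 200 bp, 15 of 35 did (42.9%), with 37.5% of the whole list as background. Seen from the other side, 27 of 34 positive Foxa1/2 peaks lay on an Nkx2-1 peak, with 61.4% of the list as background. In deleted tumors 10 of 15 Foxa1/2 peaks lay where positive tumors had an Nkx2-1 peak, with a background of 39.2%. At the strongest Sftpa1 and Sftpd site the Nkx2-1 and Foxa1/2 summits were 86 bp apart, and at the strongest Foxa1/2 site of Sftpc they were 66 bp apart.

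Foxa1/2 peaks were fewer in deleted tumors, from 12 to 2 at Sftpc, from 13 to 6 at Sftpb and from 9 to 7 at Sftpa1 and Sftpd. Of the 34 positive peaks, 23 (67.6%) had no counterpart in deleted tumors, and the background was 58.1% of the whole list. The count was 10 of 12 at Sftpc, 7 of 13 at Sftpb and 6 of 9 at Sftpa1 and Sftpd. Of the 15 deleted peaks, 4 had no counterpart in positive tumors, at a background of 33.0%. Both shares lie near those of the whole lists, so these counts are not a result about the surfactant loci. The same holds for sites with Nkx2-1, where 17 of 27 had no counterpart against 62.7% of such sites in the list. Away from Nkx2-1, 6 of 7 had none, against 50.7%, a count too small to read. Among peaks in the upper 10% of the positive list by score (at least 1057), 2 of 7 had no counterpart in the windows and 23.1% of 2308 in the list.

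Foxa1/2 sites differed within a locus. Sftpb held the Foxa1/2 peaks that scored high in both lists: chr6:72242311-72244349 scored 3100 in positive tumors, and its counterpart chr6:72242377-72244162 scored 3100 in the deleted list, above 99.6% of it. Their summits were 451 bp apart, beyond the 200 bp of the narrower rule, and both scores lie at the ceiling near 3100. Likewise chr6:72221385-72223385 scored 3100 and its counterpart 2568, above 99.3% of the deleted list, with summits 9 bp apart. Another Sftpb site, chr6:72226509-72228175, scored 2718 in the positive list, above 98.0% of it, and its counterpart scored 143, above 47.4% of the deleted list. At the highest-scoring Nkx2-1 peak of Sftpb, the Foxa1/2 peaks chr6:72253223-72254875 (score 997) and chr6:72255298-72256209 (score 380) had no counterpart.

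At Sftpc, every Foxa1/2 peak at the 3 strong Nkx2-1 peaks was without a counterpart. These were chr14:70929128-70930760 with a score of 2716, chr14:70925895-70927274 with 1018, chr14:70923468-70924742 with 592, and chr14:70931027-70931821 with 301. The nearest deleted peak summit was 10981 bp from that of the strongest of them. Only chr14:70940342-70941358 (score 206) and chr14:70945667-70946420 (score 96) had counterparts. They scored above 53.7% and 22.8% of the positive list. Their counterparts scored 306 and 103, above 73.1% and 32.0% of the deleted list, and scores are not compared between lists. The first site lay on an Nkx2-1 peak that scored 93, and the second site lay off Nkx2-1.

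In the Sftpa1 and Sftpd window the strongest Foxa1/2 peak, chr14:41958859-41961458 with a score of 3100, had no counterpart. Neither did chr14:41948457-41950956 with 916. The second strongest, chr14:41944364-41945664 with 2435, had a counterpart that scored 64, above 3.75% of the deleted list and close to its minimum. The highest-scoring deleted peak of this window, chr14:41996668-41997996, scored 263. Over the 3 windows, the 11 positive peaks with a counterpart had a median of 24 bp between summits, and those of the whole list 22 bp. Not all of the 11 were that close. At chr14:41983320-41984582, chr6:72242311-72244349 and chr6:72237999-72238777 the nearest deleted summit was 404, 451 and 848 bp away, beyond the 200 bp of the narrower rule.

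Foxa1/2 peaks seen in deleted tumors alone were weak to moderate and lay off Nkx2-1 peaks. At Sftpa1 and Sftpd they were chr14:41990826-41991803 (score 198), chr14:41913836-41914782 (191) and chr14:41919870-41920703 (63). At Sftpb there was 1, chr6:72275834-72276828, with a score of 263. H3K27ac islands covered none of this Sftpb peak in positive tumors and 100% of it in deleted tumors. At the Sftpa1 and Sftpd sites, H3K27ac was already present in positive tumors, with 100% of each peak covered. In deleted tumors it covered 100% of the peaks that scored 198 and 191, but 39.7% of the peak that scored 63. Sftpc had no such peak.

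**Figure D2:**
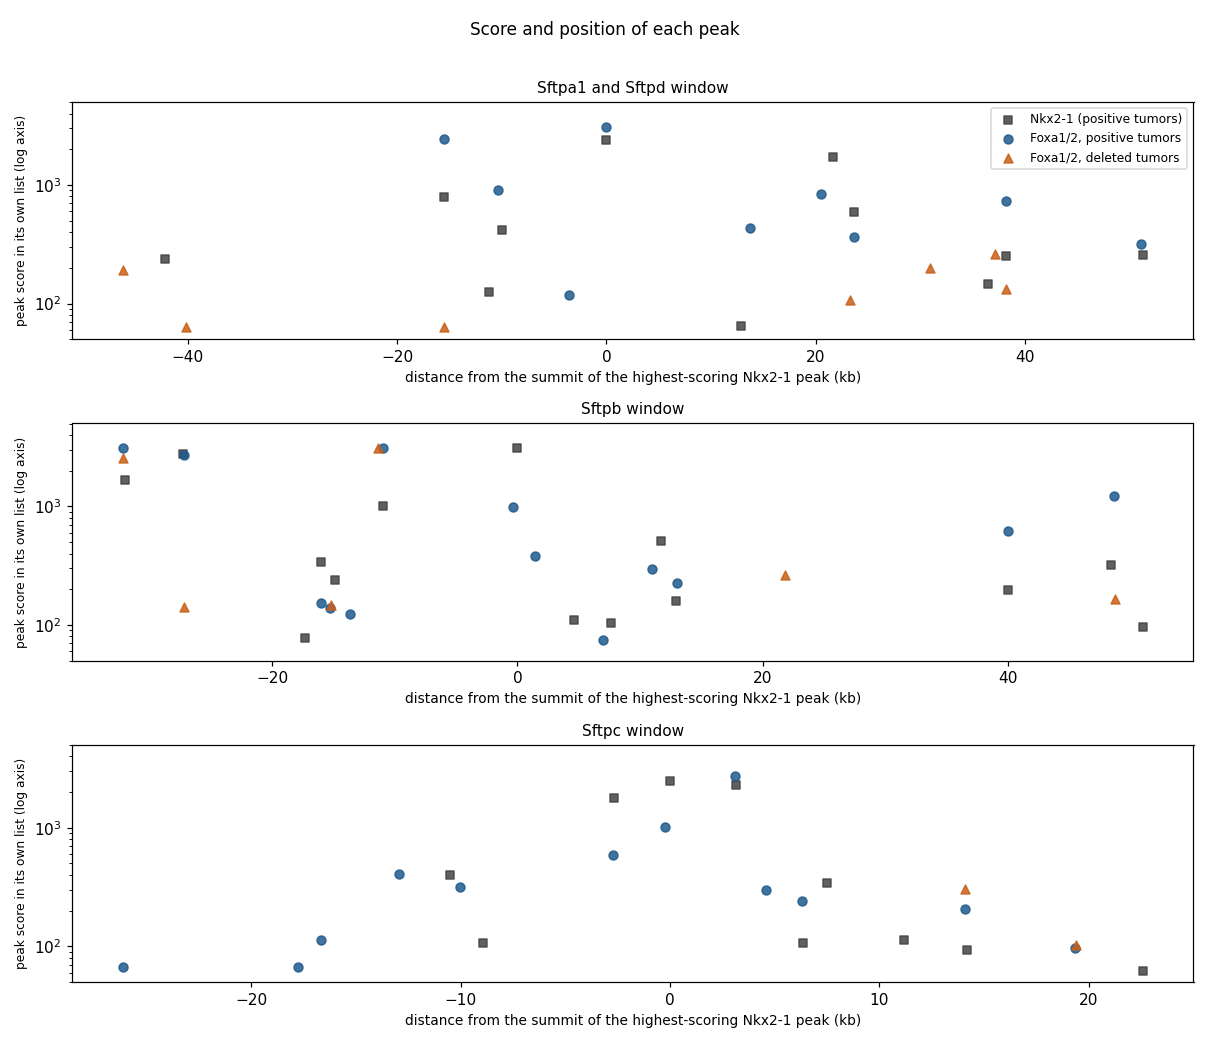
Score of every peak (y, log axis, within its own list) by the distance of its summit in kb from that of the highest-scoring Nkx2-1 peak of the window. Grey squares are Nkx2-1, blue circles Foxa1/2 of positive and orange triangles Foxa1/2 of deleted tumors. At Sftpb 2 orange triangles reach 2568 and 3100, while at Sftpc the highest is 306.

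All 3 loci were rich in H3K27ac and H3K4me1 islands in both tumor types. H3K27ac covered 84.9% of the Sftpb window in positive and 92.7% in deleted tumors, 58.0% and 53.7% of the Sftpa1 and Sftpd window, and 47.4% and 46.8% of the Sftpc window. The genome was covered to 11.1% and 8.61%. H3K4me1 covered 79.1% and 88.2% at Sftpb, 52.4% and 44.4% at Sftpa1 and Sftpd, and 58.8% and 56.8% at Sftpc, with 12.5% and 11.4% of the genome. H3K4me3 was the only mark with less cover in deleted tumors at every locus. Its cover was 26.3% and 11.3% at Sftpa1 and Sftpd, 40.0% and 22.5% at Sftpb, and 41.8% and 17.4% at Sftpc. Genome-wide its cover was 3.95% and 2.43%, so the deleted list is also shorter as a whole. When the positive list was trimmed to its densest islands until it covered as much as the deleted list, the H3K4me3 difference over the 3 windows was -7.26 points instead of -18.5. For Sftpb it was then -3.64 points instead of -17.5, for Sftpa1 and Sftpd -4.14 instead of -15.0, and for Sftpc -15.6 instead of -24.4.

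**Figure D3:**
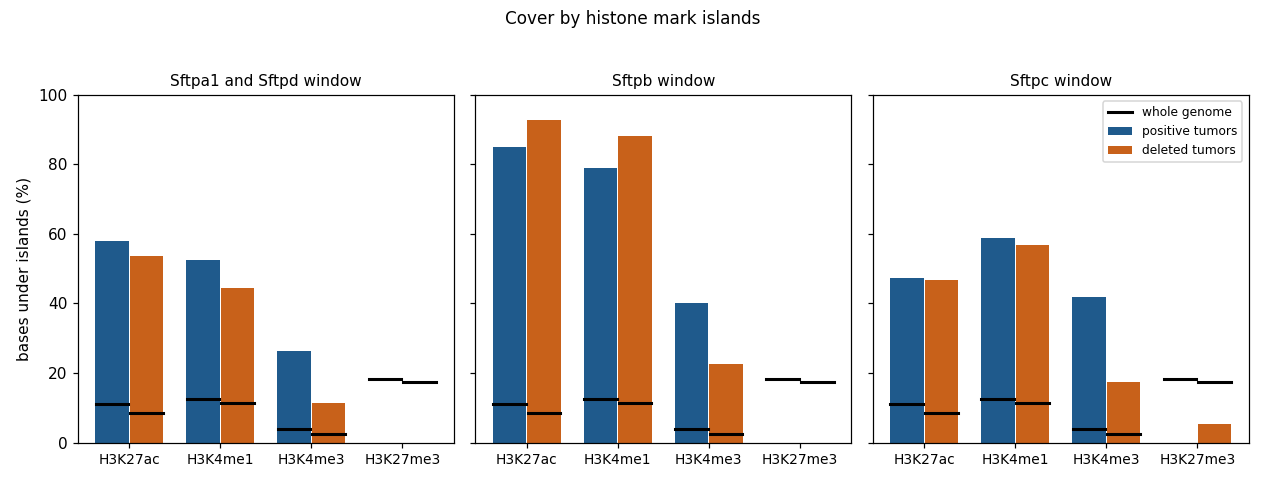
Share of each window's bases under islands (y, percent) for 4 marks in positive (blue) and deleted (orange) tumors, with black lines for the genome-wide cover of the same list. The H3K4me3 bars are lower in deleted tumors in all 3 windows, and at Sftpb the H3K27ac bars are 84.9% and 92.7%.

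A window was called for reduced cover when its cover in deleted tumors was at most 50% of that in positive tumors. H3K4me3 met this at Sftpa1 and Sftpd and at Sftpc, but not at Sftpb. Of tiles of the same length with at least 10% cover in positive tumors, 26.0% met it for Sftpa1 and Sftpd, 27.3% for Sftpc and 26.9% for Sftpb. No window met it for H3K27ac, where the tiles gave 19.2%, 20.6% and 21.3% for the lengths of Sftpa1 and Sftpd, Sftpb and Sftpc. None met it for H3K4me1 either, where they gave 5.19%, 5.94% and 6.55%. By this call alone the H3K4me3 cover is therefore not unusual.

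Island reads of H3K4me3 were lower in deleted tumors at all 3 loci, as counted and in RPM. H3K4me3 reads at Sftpa1 and Sftpd were 9697 in positive and 2980 in deleted tumors, which is 336 and 152 RPM, a ratio of 0.453 (exact 95% interval 0.435 to 0.472, counting error only, as for all intervals here). Cover was 36.8 and 15.8 kb, reads per covered kb were 264 and 189 as counted, and the ratio of this density was 1.06 once scaled. At Sftpc there were 13391 and 4567 reads over 41.8 and 17.4 kb, with a scaled ratio of 0.503 (0.486 to 0.520). Reads per kb were 320 and 262 as counted, a scaled density ratio of 1.21. At Sftpb there were 12350 and 4406 reads over 44.0 and 24.8 kb, with a scaled ratio of 0.526 (0.508 to 0.545). Reads per kb were 281 and 178 as counted, a scaled density ratio of 0.934. Averaged over each window, scaled H3K4me3 density was thus between 0.934 and 1.21 times that of positive tumors, while cover was lower. Over the whole lists, however, reads per kb as counted were 277 in positive and 305 in deleted tumors. Relative to its list, density was therefore lower in deleted tumors in all 3 windows. Density was lower in some stretches. At Sftpa1 and Sftpd, chr14:41944401-41952400 had 498 reads per kb as counted in positive tumors, and the island left there in deleted tumors had 65.9. At Sftpb, chr6:72252201-72264400 had 404, and the pieces left there had 71.0, 72.9 and 31.2. At Sftpc, chr14:70944401-70947800 went the other way, from 520 to 550. Most reads left in deleted tumors lay elsewhere, 77.3% at Sftpa1 and Sftpd in chr14:41969801-42000800 and 83.8% at Sftpb in chr6:72292401-72308800. Tiles with at least 10% H3K4me3 cover in positive tumors had a median scaled ratio of 1.00. Of these tiles, 2.41%, 5.05% and 5.52% lay below Sftpa1 and Sftpd, Sftpc and Sftpb. With 20 kb taken off each end, which removes a stretch at the far end that was level in RPM, the Sftpb ratio was 0.147.

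H3K27ac did not move alike at the 3 loci. Sftpb had 33902 reads in positive and 33904 in deleted tumors, over 93.4 and 102 kb with 363 and 332 reads per kb, so the count was level and the scaled ratio was 1.47 (1.44 to 1.49). Sftpa1 and Sftpd had 26059 and 13742 reads over 81.2 and 75.2 kb, 321 and 183 per kb, with a scaled ratio of 0.773 (0.758 to 0.790). Sftpc had 13071 and 7309 reads over 47.4 and 46.8 kb, 276 and 156 per kb, with a scaled ratio of 0.820 (0.797 to 0.844). Tiles had a median ratio between 0.899 and 0.915, and 86.6% of tiles lay below Sftpb, 37.0% below Sftpa1 and Sftpd, and 43.3% below Sftpc. Among all 23976 tiles of 110 kb, whatever their cover, only 6 held more H3K27ac reads than Sftpb in positive tumors, and 2 did in deleted tumors. H3K4me1 had a scaled ratio of 1.42 at both Sftpb (1.39 to 1.46) and Sftpc (1.37 to 1.47) and 0.948 (0.917 to 0.980) at Sftpa1 and Sftpd; tile medians were 0.957 to 0.960. H3K4me1 reads were 10331 and 12214 at Sftpb over 87.0 and 97.0 kb, 5722 and 6759 at Sftpc over 58.8 and 56.8 kb, and 7886 and 6209 at Sftpa1 and Sftpd over 73.4 and 62.2 kb. In that order, H3K4me1 reads per covered kb were 119 and 126, 97.3 and 119, and 107 and 99.8.

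The wide H3K27ac islands of positive tumors, those of at least 10 kb that start inside a window, were used to describe the marks within each locus. The width was chosen after the values had been seen. Because the stretches were bounded by calls in positive tumors, lower reads in deleted tumors are favoured, and their ratios are a description. All such islands of the genome give the background: the median scaled ratio was 0.879 for H3K27ac over 5510 islands, 1.02 for H3K4me1 over 5506 and 0.701 for H3K4me3 over the 4916 with H3K4me3 reads in positive tumors. The Sftpa1 and Sftpd window held 2 that lie side by side and went different ways. In the first, chr14:41939201-41969000, H3K27ac reads were 10293 and 2523, or 225 and 81.0 RPM, a ratio of 0.360 (0.344 to 0.376), with 10.2% of the wide islands of the genome below it. Its cover by H3K27ac was 29.8 kb in positive and 23.0 kb in deleted tumors. In the second, chr14:41969801-42000800, they were 12927 and 8829, or 283 RPM in both tumor types, a ratio of 1.00 (0.975 to 1.03), with 31.0 and 30.4 kb covered. The split does not depend on scaling between lists: of the window's H3K27ac reads in positive tumors the first island held 39.5% and the second 49.6%, while in deleted tumors they held 18.4% and 64.2%. H3K4me1 followed the same order, with ratios of 0.650 (0.605 to 0.698) in the first and 1.05 (1.01 to 1.10) in the second, though unscaled reads in the second were 3946 and 3450.

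H3K4me3 in the first Sftpa1 and Sftpd island went from 4110 to 211 reads, over 11.2 and 3.20 kb, a scaled ratio of 0.0757 (0.0656 to 0.0870), with 18.9% of wide islands below it. Most of it was 1 H3K4me3 island, chr14:41944401-41952400, with 3981 reads over 8.00 kb in positive tumors. What stood there in deleted tumors was chr14:41944601-41947800 with 211 reads over 3.20 kb. In the second island H3K4me3 went from 4734 to 2305 reads over 19.4 and 9.80 kb, a ratio of 0.718 (0.683 to 0.755). The widest H3K4me3 island of that stretch, chr14:41989601-41999800, had 4251 reads in positive tumors and chr14:41989801-41999600 had 2305 in deleted tumors. The first stretch held 4 Nkx2-1 peaks, with 4 Foxa1/2 peaks in positive and 1 in deleted tumors. The second held 5 Nkx2-1 peaks, with 4 Foxa1/2 peaks in each tumor type, but not at the same sites. The positive peaks chr14:41980282-41982262 (score 845) and chr14:41972790-41975069 (score 436) had no counterpart. Among the deleted peaks, chr14:41990826-41991803 was found in deleted tumors alone. The deleted peaks chr14:41996668-41997996 and chr14:41998132-41999150 both lay on the same positive peak, chr14:41996596-41999345. Which of the 2 stretches holds the Sftpa1 start and which the Sftpd start was not determined here.

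At Sftpb, 1 H3K27ac island spanned most of the locus in both tumor types. In positive tumors it ran over chr6:72208001-72271800, 63.8 kb wide with 28474 reads, the 8th of 73539 islands by reads. In deleted tumors it ran over chr6:72208001-72278000, 70.0 kb wide with 27504 reads, the 1st of 61981 by reads. Over the stretch of the positive island, H3K27ac went from 28474 to 25068 reads as counted and from 623 to 804 RPM, so its direction depends on the scaling (ratio 1.29, 1.27 to 1.31). H3K4me1 there was higher on both scales, with 6308 and 7631 reads over 57.4 and 63.0 kb and a scaled ratio of 1.46 (1.41 to 1.51), with 90.7% of wide islands below it. H3K4me3 went the other way on both scales, from 6446 to 642 reads over 27.4 and 12.0 kb, a scaled ratio of 0.147 (0.135 to 0.159), with 20.7% of wide islands below it. Its share of the window's H3K4me3 reads was 52.2% in positive and 14.6% in deleted tumors.

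The strongest H3K4me3 island of that stretch, chr6:72252201-72264400, was 12.2 kb wide with 4932 reads and held the highest-scoring Nkx2-1 peak of the locus. In deleted tumors 3 pieces stood in its place: chr6:72253801-72255800 with 142 reads, chr6:72256401-72257800 with 102 and chr6:72258801-72262000 with 100. By contrast, the second wide H3K27ac island of the window, chr6:72292401-72308800, had H3K4me3 reads of 5394 and 3693 over 15.4 and 12.4 kb, a scaled ratio of 1.01 (0.968 to 1.05). There H3K27ac had 4156 and 3480 reads over 16.4 and 15.8 kb, with a ratio of 1.23 (1.17 to 1.28) once scaled. The short island thus held 43.7% of the window's H3K4me3 reads in positive and 83.8% in deleted tumors.

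Sftpc carried 1 of the largest H3K4me3 islands of the positive tumors. It ran over chr14:70915201-70942000, 26.8 kb wide with 10359 reads, the 11th of 41584 by reads, and was wider than 99.97% of the list. It covered 9 of the 10 Nkx2-1 peaks of the locus. In deleted tumors 4 pieces stood in its place. The largest was chr14:70917401-70923000 with 1905 reads over 5.60 kb, next to but not on the 3 strong Nkx2-1 peaks. The others were chr14:70929801-70933600 with 492 reads, chr14:70935401-70937800 with 72 and chr14:70915601-70916800 with 43. Over the wide H3K27ac island chr14:70914001-70942200, H3K4me3 had 10359 and 2512 reads, with 26.8 and 13.0 kb covered and a ratio of 0.358 (0.342 to 0.374), with 29.9% of wide islands below it. On the same stretch H3K27ac had 11324 and 4978 reads over 28.2 and 27.6 kb, a ratio of 0.645 (0.623 to 0.667), with 29.0% below it. H3K4me1 had 2806 and 3701 reads over 25.6 and 28.2 kb, a ratio of 1.59 (1.51 to 1.67), with 95.2% below it.

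**Figure D4:**
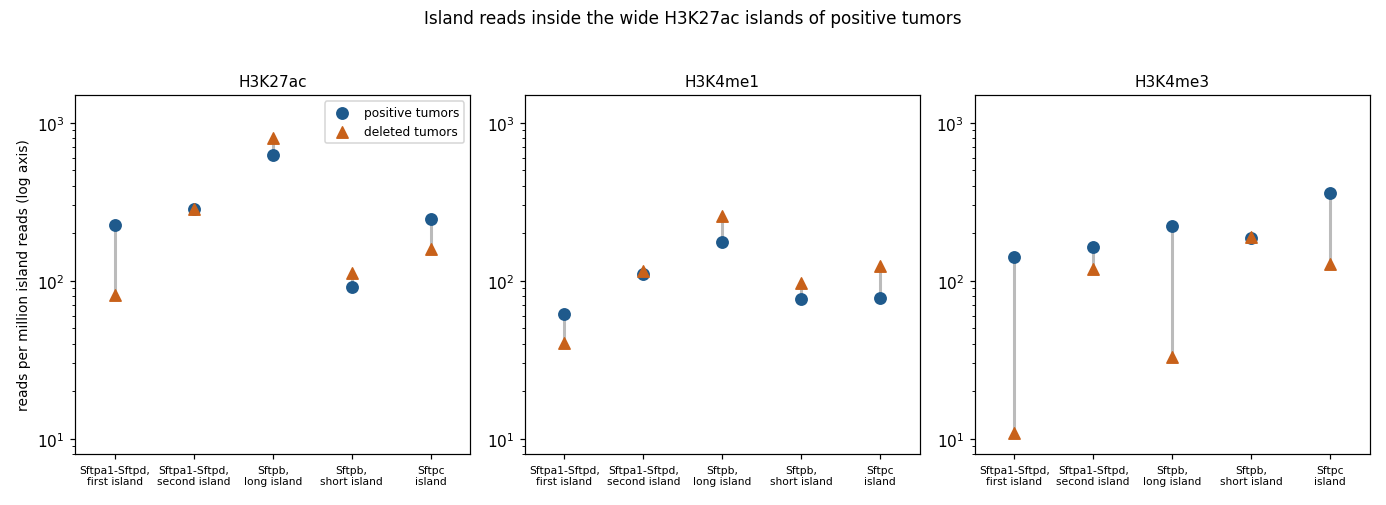
Island reads as RPM (reads scaled to the list's total of island reads, y, log axis) inside the 5 wide H3K27ac islands of positive tumors, for 3 marks, with blue circles for positive and orange triangles for deleted tumors. The second Sftpa1 and Sftpd island sits at 283 in both tumor types for H3K27ac while the first goes from 225 to 81.0, and H3K4me3 over the long Sftpb island goes from 223 to 32.8.

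H3K27me3 was almost absent. No island of this mark touched any window in positive tumors, although the mark covered 18.2% of the genome. In deleted tumors 2 islands lay in the Sftpc window and none in the others. The first, chr14:70930001-70932600, had 91 reads over 2.60 kb and overlapped the Nkx2-1 peak that scored 2291, where Foxa1/2 had no counterpart in deleted tumors. The second, chr14:70954001-70956800, had 104 reads over 2.80 kb and lay off all peaks. By reads they exceeded 10.68% and 18.43% of the deleted list, so both were small islands of it.

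At the Nkx2-1 peaks themselves, H3K27ac touched 35 of 35 in positive and 34 of 35 in deleted tumors, where the whole list had 93.2% and 79.9%. The 1 peak with H3K27ac in positive tumors only was the weakest of Sftpc, with a score of 62, and the background of such peaks was 13.8% of the list. H3K4me1 touched 34 and 35 (whole list 98.4% and 92.2%), with none in positive tumors only, against 6.60%. H3K4me3 touched 31 and 19 (88.6% and 54.3%), and the whole list also had less, 68.1% and 45.1%. The 12 peaks with H3K4me3 in positive tumors only (34.3%, against 23.3% of the list) were 6 of 11 at Sftpa1 and Sftpd, 2 of 14 at Sftpb and 4 of 10 at Sftpc. With the positive H3K4me3 list trimmed to equal cover as above, the share was 17.1% in the windows and 1.87% in the list. H3K27me3 touched 1 peak, in deleted tumors only, against 1.80%.

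Among the strong sites, chr14:41958911-41961447 and chr14:41980074-41982816 at Sftpa1 and Sftpd went from H3K4me3 cover of 100% and 66.2% to none, with H3K27ac and H3K4me1 over 100% of each in both tumor types. The peak that scored 786 there went from 100% to 86.6%. At Sftpc, the peaks that scored 2466 and 1799 went from 100% to none, and the peak that scored 2291 from 100% to 73.5%. At Sftpb, the peak that scored 3100 went from 100% to 66.2%, and those that scored 2750 and 1658 from 100% to 95.0% and from 76.2% to 71.3%. Cover says only that an island was called: at the Sftpb peak that scored 3100, the island left in deleted tumors held 142 reads. The positive islands at the 2 Sftpa1 and Sftpd sites named first were also sparse. They held 129 reads at 40.3 per kb and 119 reads at 42.5 per kb, denser than only 3.63% and 5.38% of the positive list. Going to no cover there is thus the loss of a weak call. The positive island over the 3 Sftpc peaks held 10359 reads at 387 per kb.

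**Figure D5:**
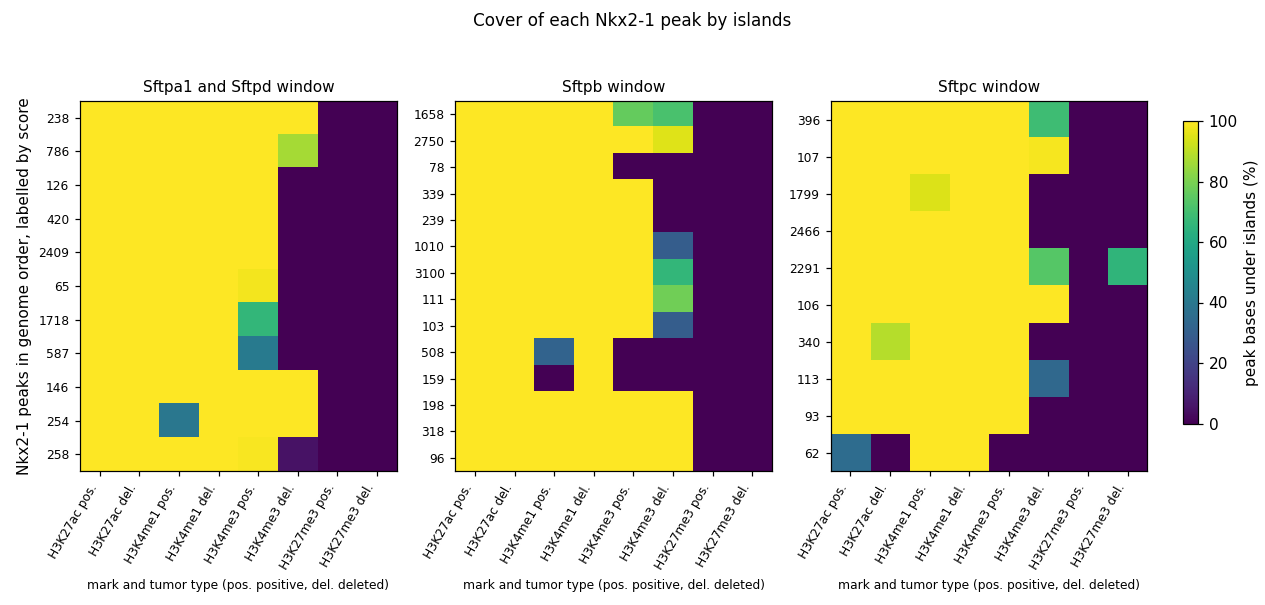
Share of each of the 35 Nkx2-1 peaks under islands (color, percent), with peaks as rows in genome order labelled by score and columns for 4 marks in positive and deleted tumors. The H3K27ac and H3K4me1 columns are nearly filled in both tumor types, whereas H3K4me3 touches 31 peaks in positive and 19 in deleted tumors.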

How the data were processed

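ChIP-seq peak and island lists of mouse lung adenocarcinomas were used as deposited. Bowtie, MACS 1.4.2 and SICER 1.1, and the build mm9, are listed in the submitters' processing notes, which assign them no role. The deposited file names carry a p of 1e-06 for peaks, and for islands an FDR of 0.01 and a window of 200 bp. The gap in those names is 600 bp for H3K4me1 and H3K27me3, and 200 bp for the other marks. The authors gave each peak a score, on a scale no source used here states, and each island a read count not scaled for depth. Total depth is unknown, which limits comparisons of reads between lists.

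Samples were grouped by title and Nkx2-1 status. Computed here, with Python 3.11.15, numpy 2.4.6, scipy 1.17.1 and matplotlib 3.10.9, were overlaps (at least 1 bp), cover, and RPM (reads per 1000000 island reads), with reads of an island cut by an edge shared by length. Ratios carry exact 95% counting intervals. Backgrounds are whole lists, end-to-end tiles of window length on 20 chromosomes and, added after the values were seen, all H3K27ac islands of at least 10 kb in positive tumors. Interval and ratio code was tested on simulated data. Named were the 3 highest-scoring peaks per factor, tumor type and window, Foxa1/2 peaks of deleted tumors alone, and some of the widest islands. The plan was to name the widest island of each mark, tumor type and window. Not all of these are named, and no H3K4me1 island is. Other peaks and islands named in the text were chosen after their values were seen. Members and lists were chosen with earlier results of these data known.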

Additional observations from a re-analysis of the deposited data

How the results depend on the processing

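No paired analysis was possible because both files of each group were identical and no result comes from a test; leaving out a library was not possible for the same reason. Over the 3 windows together, 30 alternative values stayed within the main value's 95% interval (Wilson for shares, bins of 200 bp for cover, counting error for ratios) or, for the peak count, within 1.5 times. Another 20 moved out of it and 4 changed sign; by locus the numbers were 25, 24 and 5. Foxa1/2 shares without a counterpart stayed within it under the 5 alternatives tried (63.0% to 80.0% in positive, 23.1% to 46.7% in deleted tumors). With 34 and 15 peaks, taken as independent, these intervals are wide, so staying inside them shows little. In deleted tumors the main value was 26.7%, and 46.7% came from the rule of summits within 200 bp. The Nkx2-1 count was 22 in the upper 50% of the list. Nkx2-1 peaks shared with Foxa1/2 were 42.9% with summits within 200 bp, against 37.5% of the whole list. With equal numbers of top-scoring peaks they were 90.9%, or 20 of 22. Whole-list shares under that cut, and under the alternatives for the Foxa1/2 shares, were not computed. Those values therefore have no background and are not a result about these loci. Peaks with H3K27ac in positive tumors only were 0% under all 4 alternatives. Peaks with H3K4me3 in positive tumors only were 17.1% with the lists cut to equal covered length, and peaks with H3K27me3 in deleted tumors only were 0% by summit and in the upper 50% of islands.

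Cover differences (deleted minus positive, main values 0.571 points for H3K27ac, -0.914 for H3K4me1, -18.5 for H3K4me3 and 1.54 for H3K27me3) moved as follows. In the upper 50% of islands by density they were 5.31 for H3K27ac, 4.00 for H3K4me1 and 0.800 for H3K27me3. At equal covered length they were 10.0, 1.83 and, for H3K4me3, -7.26. In windows narrowed by 20 kb they were -0.870 for H3K27ac and -25.9 for H3K4me3. By locus, the sign turned at equal covered length for H3K27ac at Sftpa1 and Sftpd (3.57) and Sftpc (14.0) and for H3K4me1 at Sftpc (6.40), and in the upper 50% at Sftpc for H3K27ac (6.00) and H3K4me1 (6.80). The cut removes the sparsest islands of the longer, positive list by construction.

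Read ratios over the 3 windows were 1.10, 1.27 and 0.498 for H3K27ac, H3K4me1 and H3K4me3. Unscaled they were 0.752, 1.05 and 0.337, and in narrowed windows 1.02, 1.23 and 0.367. H3K27ac thus changed direction with the scaling and H3K4me3 did not. Depth limits these ratios, since only reads inside islands are known and the positive lists hold more of them for the 3 active marks.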
